A study of Mus musculus with 24 samples.

Results

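Cdh6 (kidney cadherin) and 9 other type II cadherin genes (Cdh7, Cdh8, Cdh9, Cdh10, Cdh11, Cdh12, Cdh18, Cdh19 and Cdh20) were examined for CUT&RUN peaks in injured mouse kidney. They are 10 of 21887 protein-coding genes and were chosen by name and family, though with earlier results of these data known. A peak was counted for a gene when its summit lay in the RefSeq gene body or in the 10000 bp on each side. In all, 471 peaks were counted at these genes, 200 of them in Sox9 lists and 271 in H3K4me3 lists.

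CUT&RUN uses an antibody to bring a nuclease to a protein on chromatin, so that nearby DNA is cut free and sequenced. The mice were males of 9 to 12 weeks with the genotype Sox9IRES-CreERT2/+:R26RtdT/+. They had ischaemia-reperfusion injury (IRI) of both kidneys with tamoxifen given at injury, and tdTomato-positive cells of the cortex and outer medulla were sorted after 10 days (10d) or 48 h. There were 4 biological replicates at each time, and each pellet of fixed cells was divided between a Sox9 antibody, an H3K4me3 antibody and an input. All groups share the genotype, the injury and the tamoxifen, so the lists hold no uninjured animal and no Sox9-deficient animal. The red label is driven by Cre at the Sox9 locus and marks cells in which that locus was active at injury, together with their descendants. Times follow the titles, since the label for cell type says day 10 even in samples titled 48 h.

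Classical cadherins are calcium-dependent adhesion proteins that bind partners on the neighbouring cell and are tied to actin through catenins. The type II class differs from the type I class of E-cadherin and N-cadherin in its adhesive outer domain, which swaps a pair of tryptophan side chains between partners. In the kidney, Cdh6 is known from the developing nephron, where it marks early proximal tubule cells as they become epithelial. Most of the other members are best known from the nervous system. Sox9, a transcription factor of developing organs, is induced in tubule cells by injury, and H3K4me3 is a histone mark of active promoters, used here as the positive control of the assay.

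RefSeq promoters, 300 bases that end shortly after the annotated start in GRCm38.p6, the assembly of mm10, were given for 8 of the 10 members. Cdh11 and Cdh19 had no entry. The listed starts of Cdh12 (chr15:21111452) and Cdh18 (chr15:23036463) lie inside their RefSeq bodies, which begin at chr15:20448878 and chr15:22548898. The promoters of Cdh8 and Cdh18 are shown because a peak overlapped them, and that of Cdh6 because it leads the set. In the Cdh8 promoter (chr8:99416422-99416721, minus strand), capitals mark the 135 bases under a Sox9 peak of 48h replicate 4. In the Cdh18 promoter (chr15:23036213-23036512, plus strand), capitals mark 119 bases under a Sox9 peak of 10d replicate 3 and, after a gap, 50 bases under an H3K4me3 peak of 10d replicate 3. No peak of any list overlapped the Cdh6 promoter (chr15:13173626-13173925, minus strand), and its capitals mark its only match to ACAAAG. Each promoter is written 5′ to 3′ on the gene's strand.
Cdh8: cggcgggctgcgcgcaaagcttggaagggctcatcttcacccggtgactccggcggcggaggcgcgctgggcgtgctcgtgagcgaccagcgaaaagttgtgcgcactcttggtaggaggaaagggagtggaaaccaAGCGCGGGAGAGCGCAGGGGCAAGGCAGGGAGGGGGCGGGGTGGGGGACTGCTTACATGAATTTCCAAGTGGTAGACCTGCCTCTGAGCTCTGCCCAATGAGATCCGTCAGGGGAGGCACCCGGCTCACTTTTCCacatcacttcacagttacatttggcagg
Cdh18: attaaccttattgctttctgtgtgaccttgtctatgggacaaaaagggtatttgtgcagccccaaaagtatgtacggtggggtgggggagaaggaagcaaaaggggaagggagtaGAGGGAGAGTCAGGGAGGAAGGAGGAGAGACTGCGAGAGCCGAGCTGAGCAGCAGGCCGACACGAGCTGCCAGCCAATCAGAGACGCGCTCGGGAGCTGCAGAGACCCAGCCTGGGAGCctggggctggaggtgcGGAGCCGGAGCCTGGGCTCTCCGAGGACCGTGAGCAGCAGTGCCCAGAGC
Cdh6: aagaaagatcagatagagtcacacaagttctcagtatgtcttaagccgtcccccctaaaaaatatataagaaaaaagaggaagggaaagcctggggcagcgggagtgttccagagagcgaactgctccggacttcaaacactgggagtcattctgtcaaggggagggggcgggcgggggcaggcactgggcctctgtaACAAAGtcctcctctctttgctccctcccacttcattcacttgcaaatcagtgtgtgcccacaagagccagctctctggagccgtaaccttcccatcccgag

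Sox factors bind short AT-rich words, so the promoters were searched on both strands for the word ACAAT, whose reverse complement is ATTGT, and for the word ACAAAG, whose reverse complement is CTTTGT. No member promoter held both words. Among the members, ACAAT was found in Cdh10, with 2 matches that share bases at the far end of its promoter. ACAAAG was found once in Cdh6 and once in 1 of the 3 promoters listed for Cdh7. Of 17492 promoters of that length, 1 per gene, 28.5% held ACAAT and 16.7% held ACAAAG. The matches describe the letters in these windows only.

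The 16 lists held between 7724 and 88511 peaks, and the authors' files give no read depth. In each list, 92.5% to 97.7% of peaks had the lowest height that occurred in it (1 step), so that nearly every peak is the smallest unit the list holds. Between 10 and 95 peaks per list fell at the members. Because the length of a list sets how many peaks a gene can have, each gene was set against the 200 protein-coding genes nearest to it in body length, in the same list. The ratio of peaks per kb in the gene's window to the mean of those 200 genes is called the relative density, and 1 is the mean of the length-matched genes. As a check of the labelled cells, H3K4me3 peaks within 1000 bp of a gene start occurred in 1 or more of 8 libraries for 7 of 11 tubule and Sox9-lineage markers, 3 of 4 endothelial, 2 of 4 immune, 3 of 4 stromal and 3 of 3 podocyte markers. The tubule markers without any were Pax2, Krt8, Havcr1 and Umod. Such a peak was present in 11.4% of gene and library pairs for tubule, 12.5% for endothelial, 6.25% for immune, 12.5% for stromal and 25.0% for podocyte markers, against 14.97% for all protein-coding genes. The part of other cell types in the results was not tested.

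Cdh6 lies on the minus strand of chromosome 15 (chr15:13028699-13176407 in mm10) and is 147.709 kb long. Its Sox9 peaks numbered 6, 1, 0 and 5 in 10d replicates 1 to 4, against 0, 2, 3 and 0 in 48h replicates 1 to 4. As relative density, the Sox9 values were 0.922, 0.782, 0 and 1.61 at 10d, against 0, 0.957, 2.31 and 0 at 48h. The times overlapped, with empty libraries at both and the highest value at 48h.

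The H3K4me3 peaks of Cdh6 numbered 9, 2, 2 and 2 in 10d replicates 1 to 4, against 4, 2, 4 and 0 in 48h replicates 1 to 4. The H3K4me3 relative densities were 1.27, 0.917, 0.368 and 0.799 at 10d, against 1.74, 0.835, 1.39 and 0 at 48h. Here too the 48h libraries held both the highest and the lowest value. The count of 9 peaks belongs to the longest of the 16 lists, and its relative density of 1.27 is not the highest.

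Cdh6 was the member whose mean was closest to its length-matched genes, though for Sox9 this order rests on 1 library. Over 8 libraries its relative density was 0.822 ± 0.835 for Sox9 and 0.916 ± 0.561 for H3K4me3 (SD, n = 8). Without 48h replicate 3 its Sox9 mean was 0.610. Without that library, Cdh18 had 0.798, Cdh11 0.752, Cdh20 0.749, Cdh12 0.702 and Cdh8 0.683, all higher than Cdh6. With the lists summed, 17 Sox9 peaks stood against 17.7 expected from length-matched genes, a ratio of 0.962 with an exact Poisson 95% interval of 0.560 to 1.54 that covers counting error only. The 25 H3K4me3 peaks stood against 26.9 expected, a ratio of 0.930 with an interval of 0.602 to 1.37. Of its 200 length-matched genes, 91 had a lower mean relative density for Sox9 and 99 for H3K4me3. Cdh6 was therefore near the middle of genes of its length for both antibodies.

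**Figure D1:**
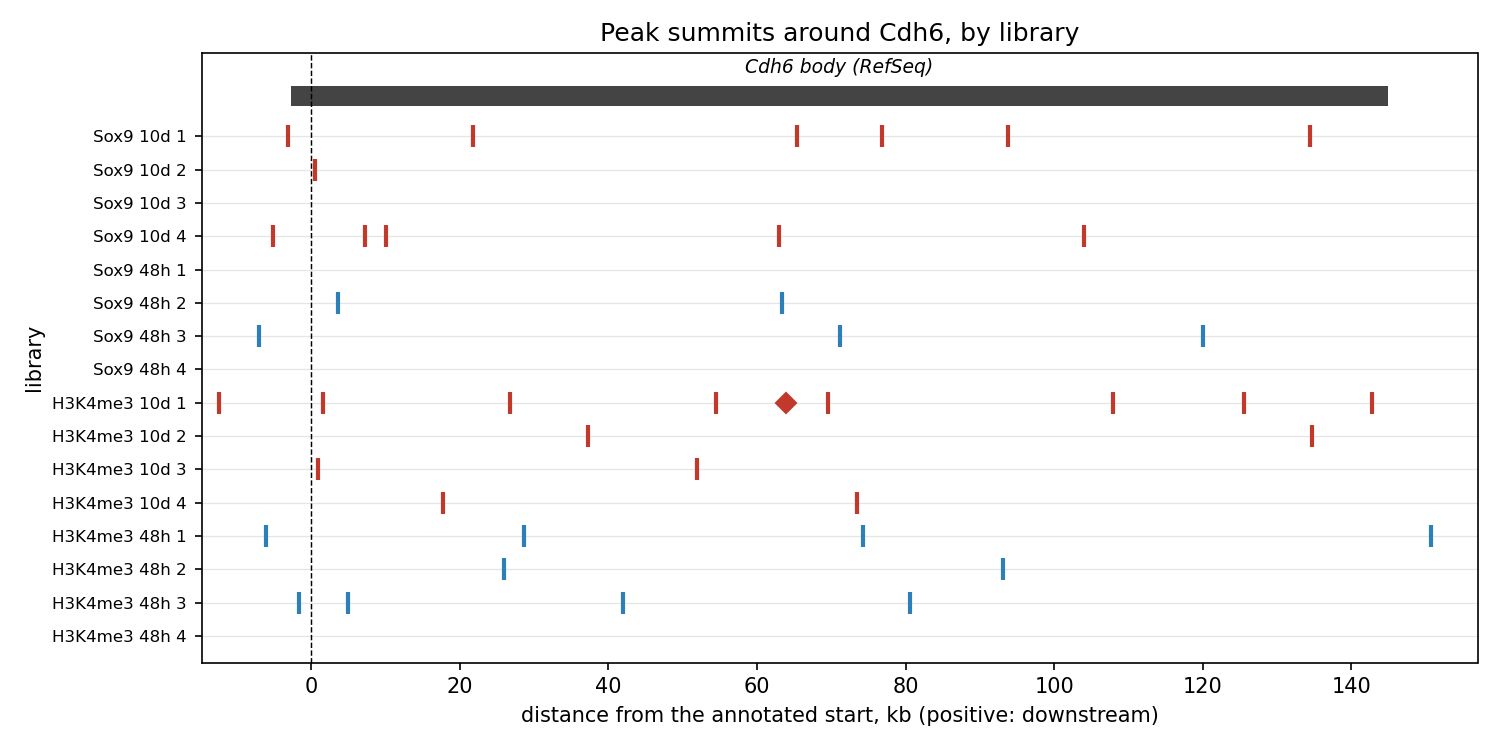
Peak summits around Cdh6 in each of the 16 lists, by distance in kb from the annotated start (positive is downstream, in the direction of transcription); the bar is the RefSeq gene body, red marks are 10d and blue marks 48h libraries, and the diamond is the only peak of 2 steps. The 42 peaks are spread over the gene, and 7 of them lie within 5000 bp of the start, in 6 different libraries.

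The map of summits shows how these 42 peaks were placed. They formed 42 separate regions, so that no Cdh6 peak overlapped a peak of any other library, of either antibody or time. In the whole genome, 92.7% of such regions came from 1 library. In all, 41 of the 42 peaks were 1 step high, as were 92.5% to 97.7% of all peaks in each list. The other, of 2 steps, was an H3K4me3 peak of 10d replicate 1 at chr15:13109651-13109932, 63861 bp downstream of the annotated start.

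Around the start of Cdh6, 7 of 42 peaks (16.7%) had their summit within 5000 bp, a stretch that makes up 5.96% of the window. Among genes at least as long as the shortest member and with a start in the table (2129 genes), 7.71% of peaks lay within 5000 bp of the start, in 3.91% of the window length. By antibody this share was 8.01% for H3K4me3 and 7.24% for Sox9. At these long genes, H3K4me3 peaks were thus little more gathered within 5000 bp of starts than Sox9 peaks. The nearest Sox9 summits to the Cdh6 start were 480 bp downstream in 10d replicate 2, 3065 bp upstream in 10d replicate 1 and 3659 bp downstream in 48h replicate 2. The H3K4me3 summits lay 973 bp and 1626 bp downstream in 10d replicates 3 and 1, and 1638 bp upstream and 4953 bp downstream in 48h replicate 3. Each of these peaks occurred in a single library, so none was repeated among the replicates of its group.

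**Figure D2:**
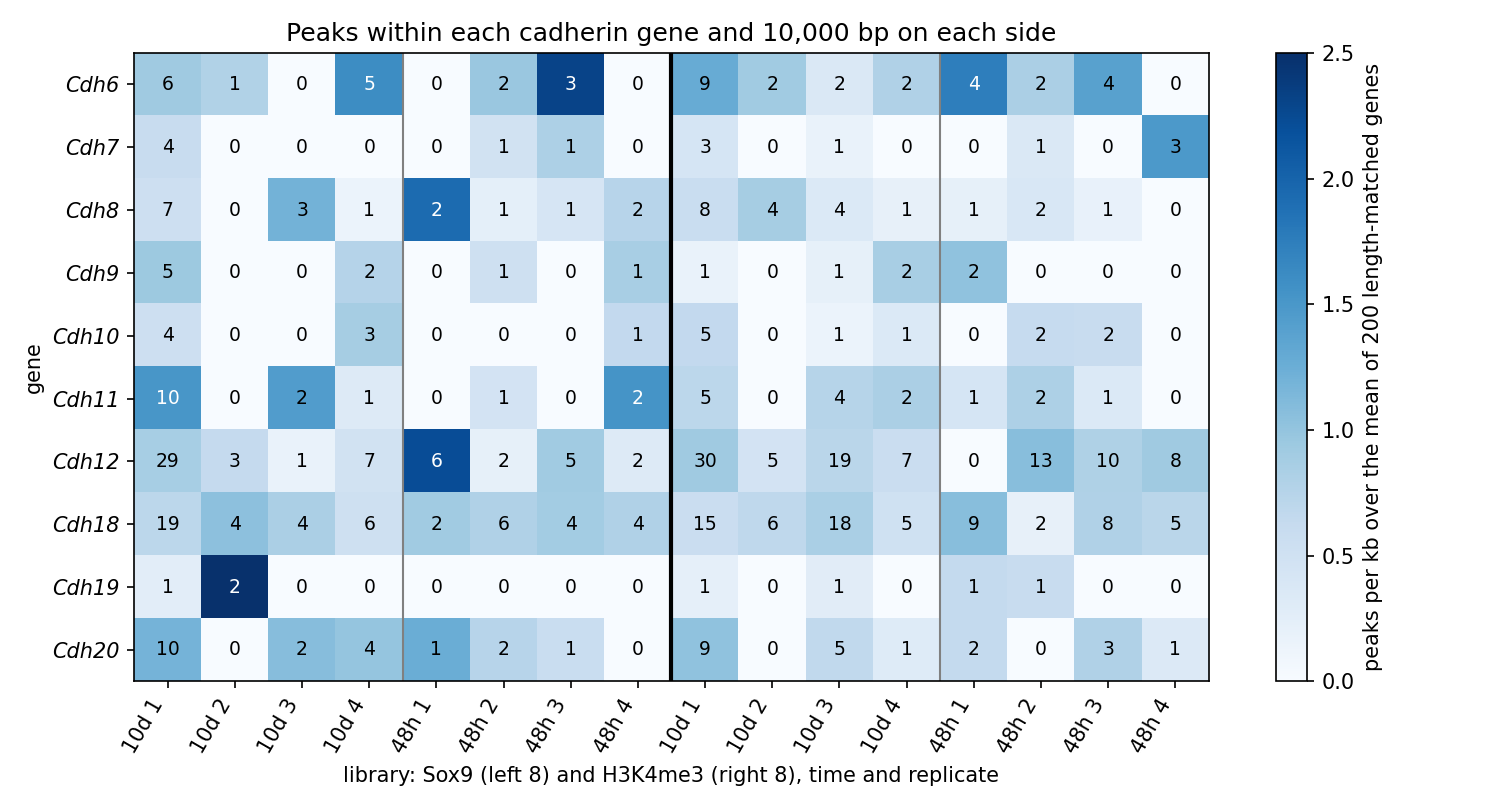
Peak counts of the 10 cadherin genes (numbers) in the 8 Sox9 and 8 H3K4me3 libraries, within the gene body and 10000 bp on each side; the colour is the relative density, peaks per kb over the mean of 200 length-matched genes in the same list. Counts follow list length, as in the first 10d replicate of both antibodies, and the 4 darkest squares rest on 2 to 6 peaks.

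The grid of peak counts sets Cdh6 beside the other members. Their mean relative densities over all 16 libraries, in descending order, were 0.869 for Cdh6, 0.741 for Cdh18, 0.706 for Cdh12, 0.599 for Cdh20, 0.571 for Cdh11, 0.499 for Cdh8, 0.333 for Cdh9, 0.280 for Cdh19, 0.276 for Cdh10 and 0.271 for Cdh7. No pair of neighbours in that order differed by more than the SD of their difference over libraries. Cdh6 exceeded Cdh18, for example, by 0.128 ± 0.722 (SD, n = 16), and was the higher of the pair in 10 libraries.

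Every member had a mean below that of its length-matched genes, for Sox9 and for H3K4me3. This holds for the members and not for the whole type II class, as Cdh5, Cdh22 and Cdh24, described below, had means above 1. Among the 2770 genes at least as long as Cdh19, the shortest member, 58.5% were below their matched mean for Sox9 and 57.9% for H3K4me3. The members had a median relative density of 0.653 for Sox9, against 0.895 for those 2770 genes, and of 0.409 for H3K4me3, against 0.914. Summed over members and lists, 200 Sox9 peaks stood against 306 expected from length-matched genes, a ratio of 0.654. The 271 H3K4me3 peaks stood against 472 expected, a ratio of 0.574. These sums lean on the longest members, as Cdh12 held 55 of the Sox9 and 92 of the H3K4me3 peaks, and Cdh18 held 49 and 68.

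**Figure D3:**
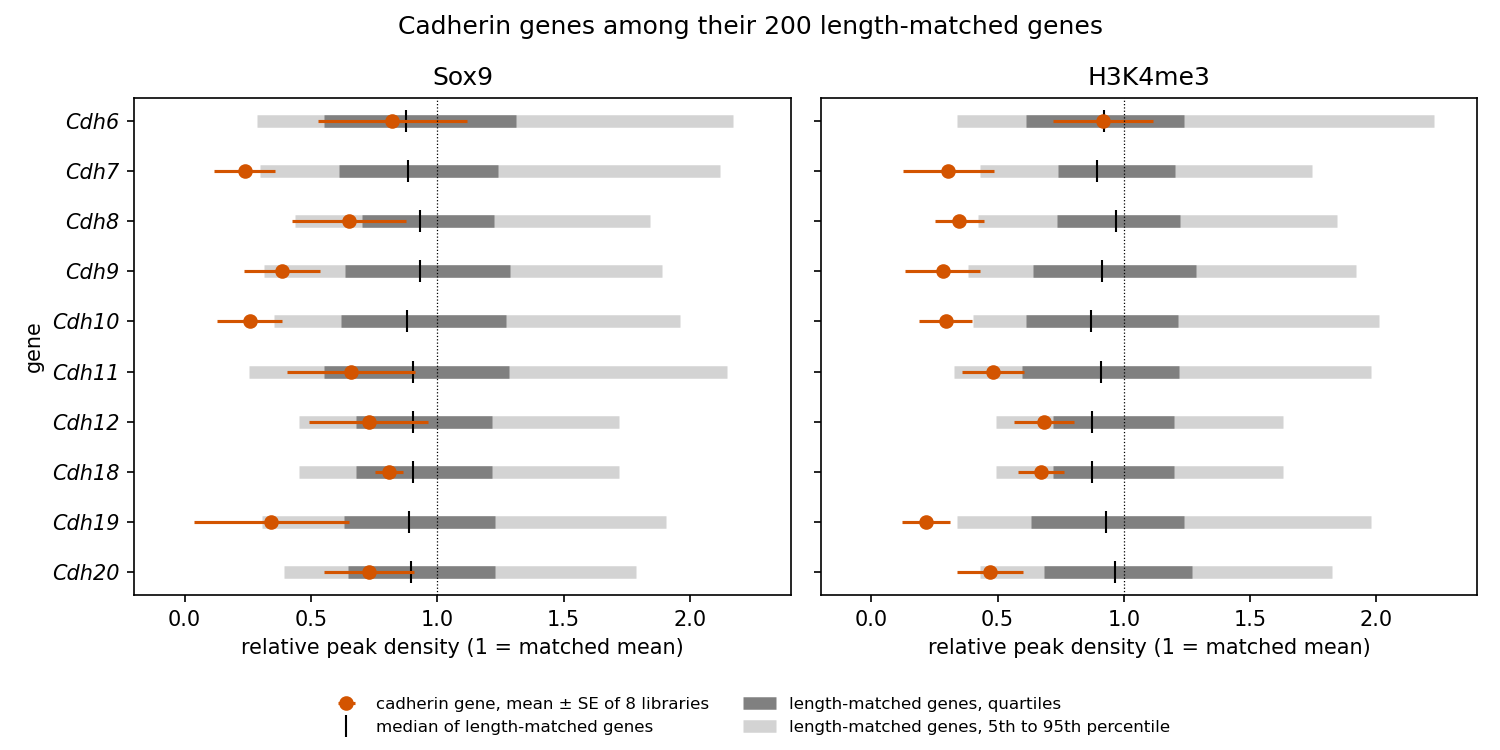
Mean relative density of each cadherin gene over 8 libraries (orange, bars are SE) beside the 5th to 95th percentile (light grey), quartiles (dark grey) and median (black tick) of its 200 length-matched genes, for Sox9 and H3K4me3. All 10 genes lie left of 1 for both antibodies, and Cdh6 (0.822 for Sox9, 0.916 for H3K4me3) lies inside the dark grey range.

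The plot against length-matched genes shows where each member fell. Each gene's 8 values were tested against the matched mean by exact sign flips, two-sided, in which 0.0078 is the smallest p that 8 libraries allow. No gene of any kind passed at an adjusted p under 0.05 (Benjamini-Hochberg over 6861 genes for Sox9 and 12299 for H3K4me3). As p cannot fall below 0.0078, a large share of these genes would have to sit at that floor for any to pass. The adjusted test could therefore hardly call single genes. At an unadjusted p under 0.05, 4 of the 10 members were lower than the matched mean for Sox9. Of the members, 8 passed the minimum of 8 peaks for each antibody, and 3 of these 8 were called lower for Sox9, against a background of 4.71% of all genes past that minimum. Without the minimum, the background was 18.3% of the 2770 long genes. For H3K4me3, 9 of 10 members were lower, 7 of them past the minimum, against 5.94% of all genes past the minimum and 22.2% of the 2770 long genes. The minimum admits short genes only where they are dense. The shares past it are therefore low and not a like background for these long members. Relative density minus 1 had a median of 0.374 for Sox9 and 0.206 for H3K4me3 in genes past it. In the 2770 long genes the medians were -0.105 and -0.0861. Below the matched mean in 8 of 8 libraries were 3 members for Sox9 (Cdh7, Cdh9 and Cdh10), against 7.83% of long genes, and 4 for H3K4me3 (Cdh8, Cdh10, Cdh11 and Cdh19), against 9.89%. Cdh6 was the member that did not pass for either antibody, with an exact p of 0.547 for Sox9 and 0.695 for H3K4me3.

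These calls rest on the unadjusted p and on length as the only matched property. Adjusted p ranged from 0.192 to 0.742 over the 8 members tested for Sox9, and from 0.116 to 0.867 over the 8 tested for H3K4me3.

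Cdh10, which is found in brain, ranked lowest of the set among its own 200 matched genes, though not in relative density, where Cdh7 was lower for Sox9 and Cdh9 and Cdh19 for H3K4me3. Its Sox9 peaks numbered 4, 0, 0 and 3 at 10d, against 0, 0, 0 and 1 at 48h. Its H3K4me3 peaks numbered 5, 0, 1 and 1 at 10d, against 0, 2, 2 and 0 at 48h. The relative density was 0.257 ± 0.367 for Sox9 and 0.295 ± 0.294 for H3K4me3 (SD, n = 8), with every library of both antibodies below 1. Without Sox9 10d replicate 4 the Sox9 mean was 0.1698. For H3K4me3, 0 of its 200 length-matched genes had a lower mean, and for Sox9, 3 had. The exact p against the matched mean was 0.0078 for each antibody, with adjusted p of 0.192 for Sox9 and 0.116 for H3K4me3.

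Cdh7, known from neural crest in chick, had Sox9 peaks in 3 libraries and H3K4me3 peaks in 4. Its Sox9 peaks numbered 4, 0, 0 and 0 at 10d, against 0, 1, 1 and 0 at 48h. Its H3K4me3 peaks numbered 3, 0, 1 and 0 at 10d, against 0, 1, 0 and 3 at 48h. The last of these, 3 peaks in 48h replicate 4, gave a relative density of 1.48, the only Cdh7 value above 1. Its mean was 0.237 ± 0.340 for Sox9 and 0.305 ± 0.506 for H3K4me3 (SD, n = 8), with 4 and 3 of the 200 matched genes lower. The H3K4me3 mean was 0.137 without 48h replicate 4, and the Sox9 mean was 0.154 without 48h replicate 3. With 6 Sox9 peaks, Cdh7 was under the minimum for the Sox9 test, and its unadjusted exact p was 0.0078.

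Cdh9, a cadherin of hippocampal synapses, had peaks in 4 libraries of each antibody. It had 5, 0, 0 and 2 Sox9 peaks at 10d, against 0, 1, 0 and 1 at 48h, and 1, 0, 1 and 2 H3K4me3 peaks at 10d, against 2, 0, 0 and 0 at 48h. Its relative density was 0.384 ± 0.427 for Sox9, below 1 in 8 of 8 libraries, and 0.282 ± 0.415 for H3K4me3, below 1 in 7 of 8 (SD, n = 8). The H3K4me3 mean was 0.177 without 48h replicate 1, the library with 2 peaks. The exact p was 0.0078 for Sox9 (adjusted p = 0.192) and 0.0156 for H3K4me3, where its 6 peaks were under the minimum.

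Cdh19, a gene of Schwann cell precursors, had the fewest peaks. It had 1, 2, 0 and 0 Sox9 peaks at 10d, against none in the 4 libraries at 48h. Its H3K4me3 peaks numbered 1, 0, 1 and 0 at 10d, against 1, 1, 0 and 0 at 48h. Its 3 Sox9 and 4 H3K4me3 peaks are under the minimum for the tests. Its Sox9 mean of 0.343 ± 0.870 (SD, n = 8) rests on 10d replicate 2, whose 2 peaks in a short list gave a relative density of 2.48, and was 0.0371 without that library. Its H3K4me3 relative density was 0.217 ± 0.272, below 1 in 8 of 8 libraries, with 2 of 200 matched genes lower.

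Cdh8, a neuronal cadherin, had a higher mean for Sox9 than for H3K4me3, by less than the spread between pellets. Its Sox9 relative densities were 0.536, 0, 1.20 and 0.156 at 10d, against 1.93, 0.229, 0.412 and 0.735 at 48h. Its H3K4me3 relative densities were 0.585, 0.877, 0.351 and 0.198 at 10d, against 0.212, 0.385, 0.184 and 0 at 48h. The means were 0.649 ± 0.639 for Sox9 and 0.349 ± 0.274 for H3K4me3 (SD, n = 8). Against length-matched genes the exact p was 0.172 for Sox9 and 0.0078 for H3K4me3, where 4 of 200 matched genes were lower. Sox9 exceeded H3K4me3 in 4 of 8 pellets, by a mean of 0.3002 ± 0.786 (SD), with an exact p of 0.383 for that difference.

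Cdh11, the OB-cadherin of osteoblasts and fibroblasts, had Sox9 values on both sides of the matched mean. Its Sox9 peaks numbered 10, 0, 2 and 1 at 10d, against 0, 1, 0 and 2 at 48h. The relative densities were 1.51, 0, 1.44 and 0.319 at 10d, against 0, 0.455, 0 and 1.54 at 48h, so that 3 libraries exceeded 1 and 3 were empty. For H3K4me3 its counts were 5, 0, 4 and 2 at 10d, against 1, 2, 1 and 0 at 48h, and all 8 relative densities were below 1, between 0 and 0.838. The exact p against the matched mean was 0.180 for Sox9 and 0.0078 for H3K4me3 (adjusted p = 0.116).

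Cdh20, known from the developing brain, had Sox9 counts of 10, 0, 2 and 4 at 10d, against 1, 2, 1 and 0 at 48h. Its Sox9 relative densities at 10d were 1.19, 0, 1.08 and 0.992, against 1.25, 0.735, 0.585 and 0 at 48h, with 10d replicate 2 apart from the other 10d libraries. Its H3K4me3 counts were 9, 0, 5 and 1 at 10d, against 2, 0, 3 and 1 at 48h. The means were 0.729 ± 0.501 for Sox9 and 0.469 ± 0.369 for H3K4me3 (SD, n = 8). Sox9 exceeded H3K4me3 in 5 of 8 pellets, by 0.260 ± 0.415 (SD), with an exact p of 0.125, the lowest of the members for that comparison.

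Cdh12 and Cdh18, both found in brain, are the longest members, at 1150 kb and 929 kb, and had the most peaks. With 34 and 67 longer genes available in place of 100, their matched genes were on the whole shorter than they are. Cdh12 had 29, 3, 1 and 7 Sox9 peaks at 10d, against 6, 2, 5 and 2 at 48h, and 30, 5, 19 and 7 H3K4me3 peaks at 10d, against 0, 13, 10 and 8 at 48h. Its H3K4me3 list of 48h replicate 1, with 0 peaks, stood apart from the other 7, whose relative densities were 0.458 to 1.07. Cdh12 averaged 0.728 ± 0.666 for Sox9 and 0.684 ± 0.340 for H3K4me3 (SD, n = 8). Its highest Sox9 value, 2.23, came from 6 peaks in 48h replicate 1. Without 48h replicate 1 the mean was 0.514 for Sox9 and 0.782 for H3K4me3. Over 8 libraries the exact p against the matched mean was 0.273 for Sox9 and 0.0156 for H3K4me3, with adjusted p of 0.556 and 0.156.

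Cdh18 had 19, 4, 4 and 6 Sox9 peaks at 10d, against 2, 6, 4 and 4 at 48h. Its Sox9 relative density had the smallest spread of the set, at 0.811 ± 0.157 (SD, n = 8), with 7 of 8 libraries below 1. Its H3K4me3 counts were 15, 6, 18 and 5 at 10d, against 9, 2, 8 and 5 at 48h, with a relative density of 0.672 ± 0.258 (SD, n = 8). The exact p against the matched mean was 0.0156 for each antibody, with adjusted p of 0.248 for Sox9 and 0.156 for H3K4me3. In rank, 84 of 200 matched genes were lower for Sox9 and 37 for H3K4me3, so Cdh18 was not among the sparsest genes of its length.

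**Figure D4:**
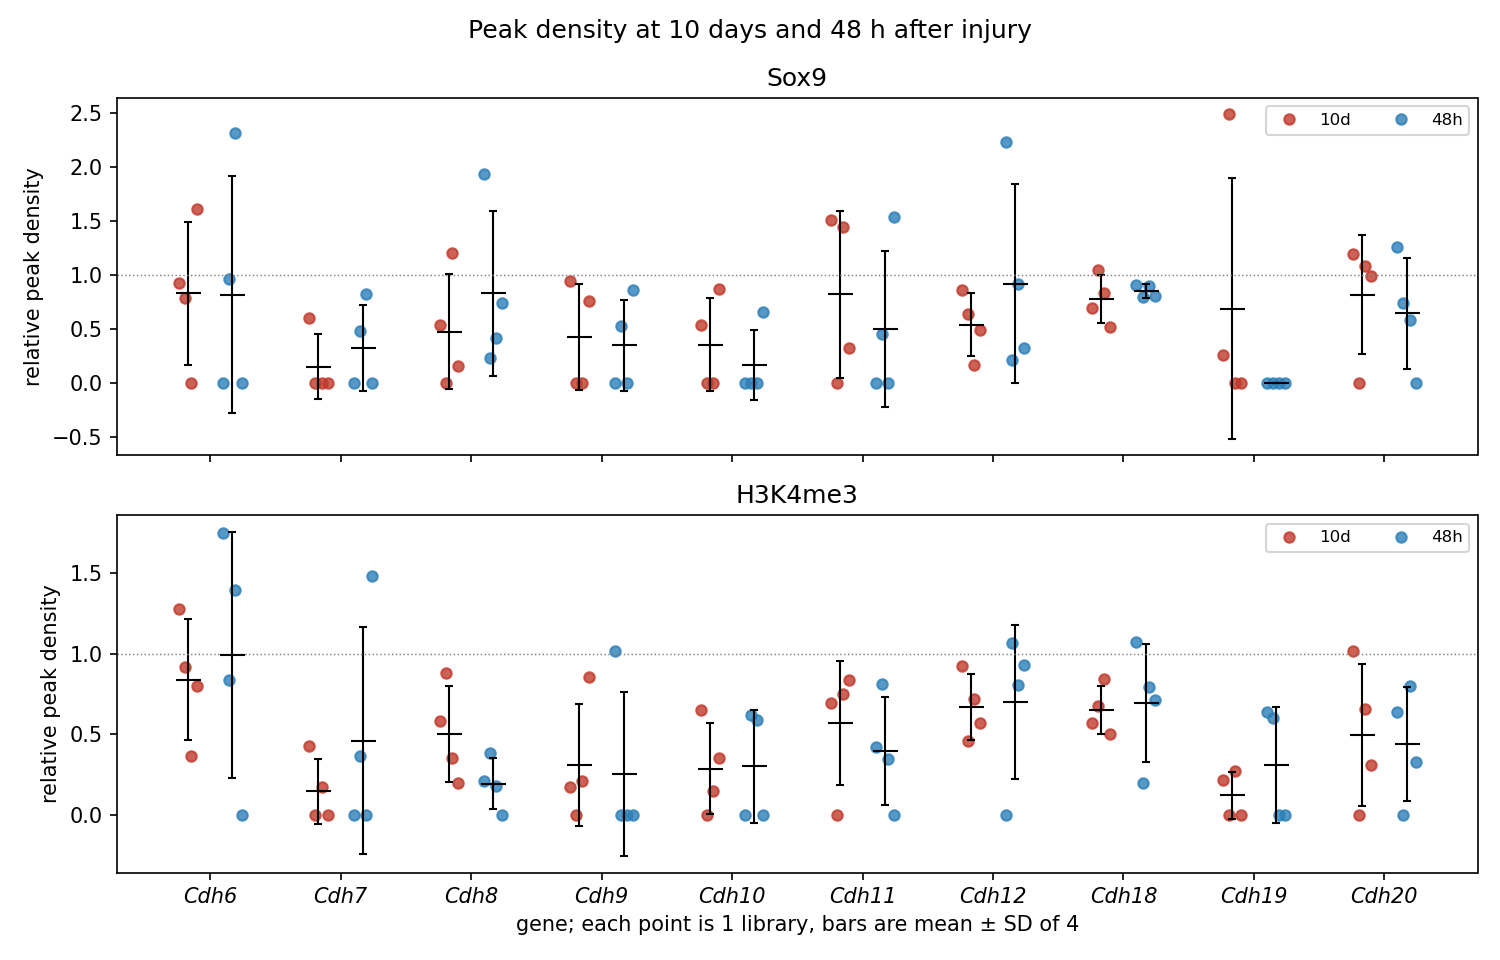
Relative peak density of each cadherin gene at 10d (red) and 48h (blue) after injury, for Sox9 (upper) and H3K4me3 (lower); each point is 1 library, bars are mean ± SD of 4, and the dotted line at 1 is the mean of length-matched genes. The 2 times overlap in all 10 genes for both antibodies; for Cdh19 the Sox9 libraries at 48h are all at 0, as are 2 of the 4 at 10d.

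The time after injury was compared by exact permutation of 4 against 4 libraries, two-sided, where 70 arrangements give 0.0286 as the smallest p. No member reached an unadjusted p under 0.05, for Sox9 (background 2.74% of 6861 genes) or for H3K4me3 (background 2.68% of 12299 genes). The plot of densities by time shows the 10d and 48h libraries overlapping in every member. For Sox9, 6 members had a higher mean at 10d, against a background of 50% of genes, and 4 a lower one, with exact p from 0.429 to 1. For H3K4me3, 4 were higher at 10d, against a background of 50.2%, and 6 lower, with exact p from 0.171 to 1.

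Cdh6 averaged 0.828 ± 0.659 at 10d and 0.817 ± 1.09 at 48h for Sox9 (SD, n = 4), a difference of 0.011 with an exact p of 1. For H3K4me3 it averaged 0.839 ± 0.373 at 10d and 0.993 ± 0.760 at 48h, a difference of -0.154 with an exact p of 0.657. Both differences are smaller than the spread between replicates, and their signs depend on single libraries. The Sox9 difference was -0.0205 without 10d replicate 1, -0.249 without 10d replicate 4, and -0.261 without either 48h replicate 1 or 48h replicate 4. The H3K4me3 difference was 0.00338 without 10d replicate 3 and 0.0965 without 48h replicate 1.

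The lowest p among members for a time difference was that of Cdh8 in H3K4me3, with 0.503 ± 0.296 at 10d and 0.195 ± 0.157 at 48h (SD, n = 4). Its difference of 0.308 had an exact p of 0.171 and an adjusted p of 1. For Sox9 the same gene averaged 0.472 ± 0.533 at 10d and 0.826 ± 0.764 at 48h, with an exact p of 0.514. The difference between these differences was -0.662, with an exact p of 0.286 in the permutation of within-pellet values.

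Sox9 and H3K4me3 were compared within the 8 pellets by exact sign flips. No member passed an unadjusted p under 0.05 (background 4.62% of 9420 genes), and p ranged from 0.125 to 0.938. Sox9 had the higher mean relative density in 7 members, against a background of 49.1% of genes, and the lower in 3, which were Cdh6, Cdh7 and Cdh10. Cdh6 was lower for Sox9 by a mean of -0.0938 ± 0.824 (SD, n = 8), with 3 of 8 pellets higher for Sox9 and an exact p of 0.781. That difference was 0.142 without the 48h pellet 1. Without that pellet, 1 member passed the unadjusted threshold. In the comparison of the antibody difference between times, no member passed the unadjusted threshold (background 2.69%), and Cdh6 had 0.165 with an exact p of 0.914. The Cdh6 value of this comparison was -0.108 without the 10d pellet 4 and -0.358 without the 48h pellet 1.

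Few member peaks were tall or repeated. In Sox9 lists, 5 of 200 member peaks (2.5%) were 2 steps or more, against 3.36% of all peaks in those lists and 3.06% of peaks at long genes. In H3K4me3 lists, 6 of 271 (2.21%) were, against 4.68% of all peaks and 4.04% of peaks at long genes. The tallest was an H3K4me3 peak of 4 steps in 48h replicate 4, in Cdh12 at chr15:20966775-20966953.

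When overlapping peaks of both antibodies were merged, the members held 452 regions, and 96.2% of them came from 1 library, against 92.7% of the 520412 regions of the genome. The regions seen most often lay in Cdh12. The tallest peak above belongs to 1 of them, shared by H3K4me3 10d replicate 1, H3K4me3 48h replicate 4 and Sox9 48h replicate 2. The other, at chr15:20645258-20645632, had a peak in H3K4me3 10d replicate 3, H3K4me3 48h replicate 2 and Sox9 48h replicate 1. In Cdh20, chr1:104831026-104831260 was seen in Sox9 10d replicates 3 and 4, the only Sox9 region of a member repeated within a group. No region of a member was present in 3 or more libraries of 1 antibody, out of 197 Sox9 and 265 H3K4me3 regions. Such regions were also rare in the genome, at 1066 of 215098 for Sox9 and 3231 of 328775 for H3K4me3. Their absence at the members therefore says little.

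At the starts of the members, within 1000 bp (either end of the gene for Cdh11 and Cdh19), peaks were rare. Cdh6 had a Sox9 peak in 1 library and an H3K4me3 peak in 1 library. Cdh8 had them in 1 and 2 libraries, and Cdh18 in 1 and 1. Cdh12 had H3K4me3 peaks in 2 libraries, Cdh11 in 1, and Cdh20 had a Sox9 peak in 1. For Cdh12 and Cdh18 the start used lies inside the RefSeq body, and the upstream ends of these bodies were not read as starts. Cdh7, Cdh9, Cdh10 and Cdh19 had none of either kind. Over the 10 members, 5.00% of gene and library pairs had a Sox9 peak there, against 8.19% for all protein-coding genes, and 8.75% had an H3K4me3 peak, against 14.97%. For the 2770 long genes these shares were 10.5% for Sox9 and 17.3% for H3K4me3.

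The low densities were not limited to the genes themselves. In the 500 kb on each side of the windows, members had a median peak density of 0.628 of the list mean for Sox9, against 1.08 for the 2770 long genes, and of 0.529 for H3K4me3, against 1.09. Relative to these surroundings, the window of a member held a median of 0.864 of their density for Sox9 and 0.770 for H3K4me3, against 0.968 and 0.962 for long genes. Cdh6 had the densest surroundings of the set, at 1.14 for Sox9 and 0.960 for H3K4me3. Its window was 1.06 times as dense as they were for Sox9 and 1.17 times for H3K4me3. Cdh11 stood apart for Sox9, where its window was 1.96 times as dense as its sides, against 1.07 times for H3K4me3.

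**Figure D5:**
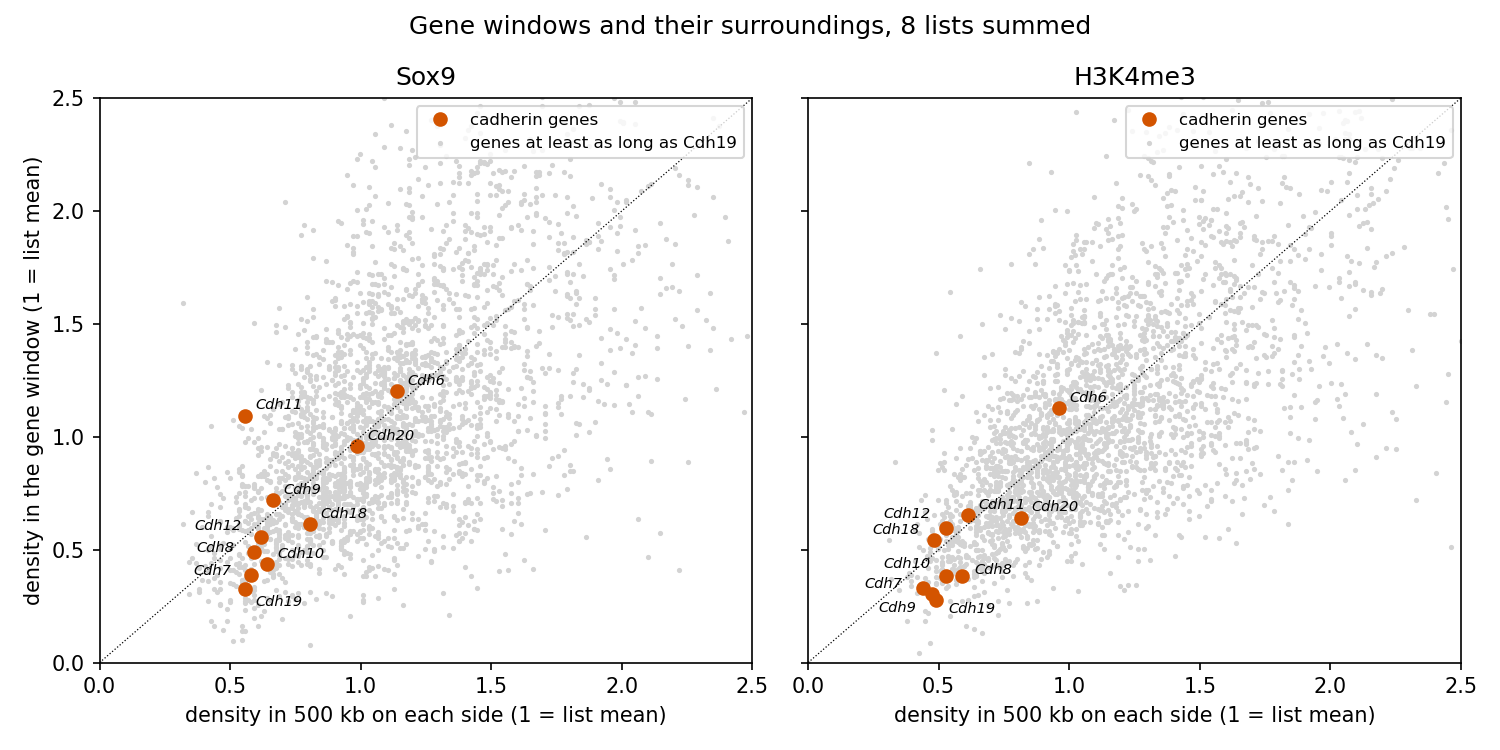
Peak density in the gene window against the density in the 500 kb on each side, both over the list mean with the 8 lists of an antibody summed, for the cadherin genes (orange) and all genes at least as long as Cdh19 (grey); the dotted line marks equal densities, and genes beyond the axis limits are not drawn. Most cadherin genes lie at the sparse end of both axes, while Cdh6 lies near 1 on both and Cdh11 has a denser window than its sides for Sox9.

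In the plot of windows and surroundings, genes of the same stretch of a chromosome are separate points. Cdh6, Cdh9, Cdh10, Cdh12 and Cdh18 lie along one stretch of chromosome 15, 10.5 Mb long from Cdh6 to Cdh18, with 7 protein-coding genes in all. Its peak density was 0.585 ± 0.128 of the list mean for Sox9 and 0.525 ± 0.0529 for H3K4me3 (SD, n = 8), below 1 in 8 of 8 lists of each antibody. Cdh20, Cdh7 and Cdh19 lie within 6.23 Mb of chromosome 1 that holds 24 genes, where the density was 0.687 for Sox9 and 0.671 for H3K4me3. Cdh8 and Cdh11 are the only genes of a 3.78 Mb stretch of chromosome 8, where it was 0.540 for Sox9 and 0.531 for H3K4me3. The stretches hold 0.669, 3.85 and 0.529 genes per Mb, against 8.04 for the genome. Within 1 Mb of a member there were 0 to 6 other genes, against medians of 9 to 19 for the length-matched genes. Gene density, base composition and mappability were not matched, and their part in the low peak densities was not tested.

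Other cadherins and adherens junction genes were read from a list of 22 genes. For each antibody, 12 of the 22 were below their matched mean, with a median of 0.838 for Sox9 and 0.925 for H3K4me3. None passed an adjusted p under 0.05, and an unadjusted p under 0.05 against the matched mean was reached by 7 for each antibody. Past the minimum of peaks, it was reached by 5 of 17 genes for Sox9 and by 5 of 20 for H3K4me3. The backgrounds, in either direction and past that minimum, were 13.8% of genes for Sox9 and 17.6% for H3K4me3. For each antibody 3 of the 7 were higher (Cdh4, Cdh13 and Plekha7) and 4 lower. The lower genes were Cdh17, Ctnna2 and Vcl for both antibodies, with Cdh3 for Sox9 and Ctnnd1 for H3K4me3; Cdh17, Cdh3 and Ctnnd1 were the ones under the minimum. Those of these genes that are not among the highest or lowest given next were named after their values were seen. The highest over 16 libraries were Cdh4 (R-cadherin), at 2.54 ± 0.934, Plekha7, a junction linker, at 1.91 ± 0.758, and Cdh15 (M-cadherin, of muscle), at 1.79 ± 1.99. The lowest were Cdh17, of liver and intestine, at 0.267 ± 0.431, Vcl (vinculin) at 0.434 ± 0.422, and Cdh3 (P-cadherin) at 0.486 ± 0.536 (SD, n = 16). The type II cadherins on this list, singled out after their values were seen, had means above 1. These were 1.54 ± 1.18 for Cdh5 of endothelium, 1.76 ± 1.22 for Cdh22 and 1.68 ± 1.86 for Cdh24 (SD, n = 16). None of them reached an unadjusted p under 0.05 against the matched mean for either antibody. Their bodies are 42.9, 123 and 10.8 kb long.

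The genes whose relative density over the 16 libraries was most like that of Cdh6, among 6327 genes with at least 21 peaks, were Lmln (Pearson's r = 0.836), Rbm42 (0.802), Gab1 (0.795), Hoxd10 (0.793) and Gm6943 (0.788). The median r over those genes was 0.00391. These are descriptions over libraries that share pellets and list lengths, and the highest of many values. The 5 other members with enough peaks had r between -0.434 (Cdh8) and 0.091 (Cdh20), so that none followed Cdh6 closely across libraries.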

How the data were processed

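Each deposited list gives, per peak, a position, a summit offset, a score, a fold and 2 significance values. There is 1 list for each of the 16 antibody libraries, and the peak names in the files pair each library with its pellet's input as control. The 8 input samples themselves were not analysed here. The submitters' processing notes name Bowtie, Bowtie2, MACS3 and Partek 10, with mm10 as the genome. Read filters, scaling to input, the peak threshold and read depth are not given in the sources used here. The authors' fold is the ratio of pileup over background at each summit. Each p-value or q-value is given by the authors as its −log10, and the deposited score was not used. Heights in steps were solved from fold and p, assuming that the fold has 1 added to both terms and that p is a Poisson tail. In each list, 99.6% to 100.0% of heights lay within 0.05 of a whole multiple of the lowest.

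On the autosomes, X and Y, peaks were counted by summit in gene bodies of a RefSeq table (GRCm38.p6) with 10000 bp on each side, and 5 to 22 peaks per list elsewhere were left out. Relative density is peaks per kb over the mean of 200 length-matched genes, 100 shorter and 100 longer where possible. Genes with at least 8 peaks over 8 lists, or 16 over 16, entered the tests, and p was adjusted by the Benjamini-Hochberg method. The tests were exact permutations and exact sign flips over libraries, two-sided, run for every gene and tested on simulated data. The test against matched genes takes the matched mean as known. The pairing of antibodies rests on the labels, which say that a pellet was divided. Deviations of libraries from 1 pellet correlated between -0.00496 and 0.0298. The replicates were labelled as biological, and identical peaks between lists of an antibody numbered at most 13, so no list was a copy. The members, the lists and the rule for named genes (all members, the 3 highest and 3 lowest of the junction list and the 5 genes most like Cdh6) were chosen with earlier results of these data known. Alternatives were other windows, peak filters, list lengths, backgrounds and tests, a replicate block and leaving out libraries. The background of long genes and the ratios of summed peaks were added after the data were seen. The software was R 4.3.3 with limma 3.58.1, and Python 3.11.15 with SciPy 1.17.1, pandas 2.3.3, NumPy 2.4.6 and Matplotlib 3.10.9.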

Additional observations from a re-analysis of the deposited data

Results flagged for a closer look

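In 5 of the 39 groups of 4 libraries with any spread, 1 library stood apart from the other 3 by more than Dixon's 95% limit. For continuous values chance flags about 1 in 20, but that rate does not hold for these sparse counts, since any value passes where the other 3 libraries are at 0, as in 3 of the 5. Cdh7 had a Sox9 relative density of 0.602 in 10d replicate 1, from 4 peaks, and 0 in the others. Cdh9 had an H3K4me3 relative density of 1.02 in 48h replicate 1, from 2 peaks, and 0 in the others. Cdh10 had a Sox9 relative density of 0.652 in 48h replicate 4, from 1 peak, and 0 in the others. Cdh19 had a Sox9 relative density of 2.48 in 10d replicate 2, from 2 peaks, against 0 to 0.259 in the others. Cdh20 had a Sox9 relative density of 0 in 10d replicate 2, against 0.992 to 1.19 in the others.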

How the results depend on the processing

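Of 723 alternative values, 698 were counted as unchanged. For a gene's value this meant the same sign and the same side of the adjusted threshold. For summed peaks it meant the same sign and a shift under the SD over libraries. For a count of genes or members it meant a count equal or near to the main one, so small changes are not seen. No alternative gave a member an adjusted p under 0.05, which the exact tests could hardly reach. The densities of members against length-matched genes kept their sign in 379 of 380 cases. For Cdh6, leaving out 1 library or pellet gave -0.261 to 0.509 for the Sox9 time difference, -0.485 to 0.0965 for the H3K4me3 time difference, -0.238 to 0.142 for Sox9 minus H3K4me3, -0.358 to 0.529 for antibody by time, and -0.202 to 0.0469 for H3K4me3 against the matched mean (above it without 48h replicate 4). For Sox9 against the matched mean, leaving out 1 library gave -0.390 to -0.0603 for Cdh6. Leaving out 1 library or pellet also gave 0 to 1 members at an unadjusted p under 0.05 between antibodies, and 4 to 6 for Sox9 against matched genes. Other reversals, all of Cdh6, were the Sox9 time difference with 100 matched genes (-0.0408) and with equal list lengths (-0.0100), the H3K4me3 time difference for the gene body alone (0.0496) and in limma on the log2 scale with 0.25 added (0.0935), Sox9 minus H3K4me3 with 50000 bp flanks (0.127), and antibody by time with equal list lengths (-0.954). The cause was not tested. Equal list lengths gave 1 member at an unadjusted p under 0.05 for antibody by time and 2 for Sox9 against matched genes. Either time alone gave 0 members for each antibody, since sign flips of 4 libraries cannot reach that p. Peaks of 2 or more steps left no value for members, and there 20 of 24 genes passed for Sox9 and 57 of 86 for H3K4me3, as only genes with many such peaks were tested. With libraries of the same number paired across times, a replicate block, the Cdh6 difference was 0.011 for Sox9 and -0.154 for H3K4me3, with exact p of 1 and 0.750. Numbers are shared labels only: same-number deviations correlated between -0.00981 and 0.0174 for Sox9 and between -0.00474 and 0.0247 for H3K4me3, and a library matched its own number best in 0 of 4 cases for Sox9 and 2 of 4 for H3K4me3. Without the pellet block, Sox9 minus H3K4me3 for Cdh6 was -0.0938 with a permutation p of 0.792. Read depth is unknown, so precision rests on 4 libraries per group and on few peaks per gene.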

Other observations

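The 8 member promoters in the RefSeq table had a median GC content of 51.8% and a median of 10.5 CpG dinucleotides in 300 bases, against 56.3% and 13 for 17492 promoters. Cdh10 had the fewest, with 2 CpG and 37.7% GC, and Cdh8 the most, with 21 CpG and 62.3% GC. Cdh6 had 8 CpG and 53.0% GC.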
